A study of Mus musculus with 12 samples.

Results

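The 48 genes described here act in the G2 phase and in mitosis, and their levels were compared between young and old intestinal stem cells (ISCs) of the mouse. They were taken as a list of named genes and not by a cutoff on their values, but with earlier results of these data known. All 48 are among the 54232 genes of the count table. Of these, 47 passed the filter on low counts that left 13368 genes for testing. The exception was Kif20a, a kinesin of the central spindle, which had 26 reads over all libraries and at most 5 in any of them.

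The data are 3′ RNA sequencing libraries of sorted ISCs from 12 female mice, 1 mouse a library, in 4 groups of 3. SM6 young and SM6 old are ISCs of wild-type C57/Bl6 mice aged 2 and 22 months, isolated by 6 surface markers. Lgr5-GFP young and Lgr5-GFP old come from mice of the same ages of the strain labelled Lgr5-EGFP-IRES-CreERT (with CreERT2 in the study's methods), in which a fluorescent reporter and a Cre recombinase sit in the gene Lgr5, a receptor of ISCs. Strain and isolation change together, so they cannot be told apart, and a source of the study names the surface markers for every library while another has the reporter mice sorted by fluorescence.

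G2 is the phase between DNA replication and mitosis. Entry into mitosis is driven by cyclin-dependent kinase 1 bound to B-type cyclins, after which the spindle captures the chromosomes, the spindle checkpoint waits until all are attached, and the anaphase-promoting complex then releases the sister chromatids. Transcripts of these genes are kept low in resting cells and in G1 and accumulate late in the cycle, so in a sorted population their level follows in part how many cells are dividing. ISCs at the crypt base divide throughout life. In bulk libraries, fewer cells in G2 or mitosis and less RNA in each such cell cannot be told apart.

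Library totals ran from 970472 to 3815425 reads. The median count of a member over the libraries ran from 2 for Kif20a to 658.5 for Top2a, and was 103.5 for the middle member. A pair of libraries stood apart by their Paneth cell transcripts: genes of Paneth cells and defensins took 27.1% of the reads in SM6 old replicate 3 and 27.3% in Lgr5-GFP young replicate 1, and between 1.43% and 13.5% in the other libraries. Levels of single genes are therefore given as CPM, that is, counts scaled to a common library total, after TMM scaling, a trimmed mean of log ratios that a few abundant genes move less. All 11 ISC markers were above the filter, and Lgr5 itself had mean levels between 233 and 332 CPM in the 4 groups. Summed markers of immune cells reached at most 28.0 CPM, with the B cell gene Cd79a at 0 in every library, and those of stromal and endothelial cells at most 8.14 CPM.

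The members shared promoter features that the list did not use. Promoters of late cell cycle genes are known for CCAAT boxes, which the factor NF-Y binds, and for a cell cycle homology region, written TTTGAA or TTTAAA, through which they are held silent in resting cells. RefSeq promoters (GRCm38.p6, 250 bases before to 50 after a start site) were given for 41 of the 48 members, as 45 promoters, among 32851 promoters of all genes. Of these 45, 35 (77.8%) held a CCAAT on either strand, compared with 37.4% of all promoters. TTTGAA was found in 32 (71.1%, against 17.9%) and TTTAAA in 11 (24.4%, against 13.2%). A CCAAT together with either form of the homology region was present in 32 member promoters (71.1%), and in 10.7% of all promoters. At least 2 CCAAT were found in 24 (53.3%, against 11.7%). These are matches of letters, not measured binding, and overlapping promoters of the same gene were counted separately. The 3 promoters below belong to the members with the smallest p for the average age effect among those in the table, and are shown because they include the 1 member called with age. Capitals mark CCAAT (or ATTGG, its reverse complement), TTTGAA and TTTAAA.
Cenpf: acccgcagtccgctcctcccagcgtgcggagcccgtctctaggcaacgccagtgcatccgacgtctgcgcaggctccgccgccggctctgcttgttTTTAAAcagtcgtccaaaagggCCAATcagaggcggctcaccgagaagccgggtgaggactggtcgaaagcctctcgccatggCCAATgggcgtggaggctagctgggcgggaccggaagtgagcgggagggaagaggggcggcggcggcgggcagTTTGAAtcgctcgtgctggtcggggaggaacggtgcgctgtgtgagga
Mki67: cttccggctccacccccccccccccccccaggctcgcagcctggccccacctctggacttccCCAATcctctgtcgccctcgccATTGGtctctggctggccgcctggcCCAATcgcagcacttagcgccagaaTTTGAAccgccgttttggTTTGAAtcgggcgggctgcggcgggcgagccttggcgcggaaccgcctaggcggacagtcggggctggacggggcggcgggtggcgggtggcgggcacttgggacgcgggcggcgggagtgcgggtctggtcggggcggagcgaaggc
Bub1b: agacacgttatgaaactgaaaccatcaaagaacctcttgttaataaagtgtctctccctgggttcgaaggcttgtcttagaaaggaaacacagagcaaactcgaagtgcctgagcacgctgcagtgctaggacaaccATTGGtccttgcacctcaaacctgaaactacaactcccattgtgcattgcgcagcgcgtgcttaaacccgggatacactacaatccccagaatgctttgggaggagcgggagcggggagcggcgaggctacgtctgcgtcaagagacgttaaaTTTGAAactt

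The first sequence lies on the minus strand at chr1:189688037-189688336 and precedes Cenpf, which encodes a large protein of the outer kinetochore. It held 2 CCAAT, 1 TTTAAA and 1 TTTGAA, the last just past the start site. The second, on the minus strand at chr7:135716330-135716629, precedes Mki67, whose protein Ki-67 coats mitotic chromosomes and is the common marker of dividing cells. It held 3 CCAAT and, closer to the start site, 2 TTTGAA. The third, on the plus strand at chr2:118597961-118598260, precedes Bub1b, which encodes the checkpoint protein BubR1. It held 1 CCAAT and 1 TTTGAA, the latter past the start site. No promoter was given for Aurkb, Ccna2, Cdc25c, Incenp, Kif20a, Smc4 and Tpx2.

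Old was then compared with young to ask whether genes of G2 and mitosis differed with age in either isolation. In SM6, 37 of the 47 tested members had lower estimates in old than in young ISCs, where 50.7% of all genes did, and their median log2 fold change was -0.21, against -0.01 over all genes. In Lgr5-GFP, 31 of 47 were lower, compared with 53.6% of all genes, with a median of -0.12 against -0.03. None of the 47 members was called in either isolation by edgeR's quasi-likelihood test at an adjusted p under 0.05, where 2.42% of all genes were called in SM6 and 0.471% in Lgr5-GFP. DESeq2 and limma voom also called 0 members in both. At an unadjusted p under 0.05, 4 members passed in SM6 (13.1% of all genes did), of which Cenpf, Kif20b and Mki67 were lower (7.68% of all genes were) and Pttg1 higher. In Lgr5-GFP, 4 passed (9.79% of all genes), namely Incenp, Cenpf, Tpx2 and Tacc3, all lower (5.84% of all genes). The 4 members in Lgr5-GFP are 8.51%, near the share of all genes. The SM6 number moved with the setting: it was 11 with library totals alone (13.7% of all genes), 8 without the 2 libraries richest in Paneth cell transcripts (14.3%), 7 with voom (15.1%) or without SM6 old replicate 3 (14.1%), and 1 without SM6 old replicate 1 (11.3%), SM6 old replicate 2 (11.04%) or SM6 young replicate 1 (11.9%). In Lgr5-GFP it was 2 with library totals alone (10.8% of all genes), with the Paneth cell covariate (7.72%) or without Lgr5-GFP old replicate 3 (7.49%), and 6 without Lgr5-GFP old replicate 2 (9.03% of all genes) or young replicate 1 (8.52%), without the 2 libraries richest in Paneth cell transcripts (9.24%) or with no filter beyond 1 count (7.01%).

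**Figure D1:**
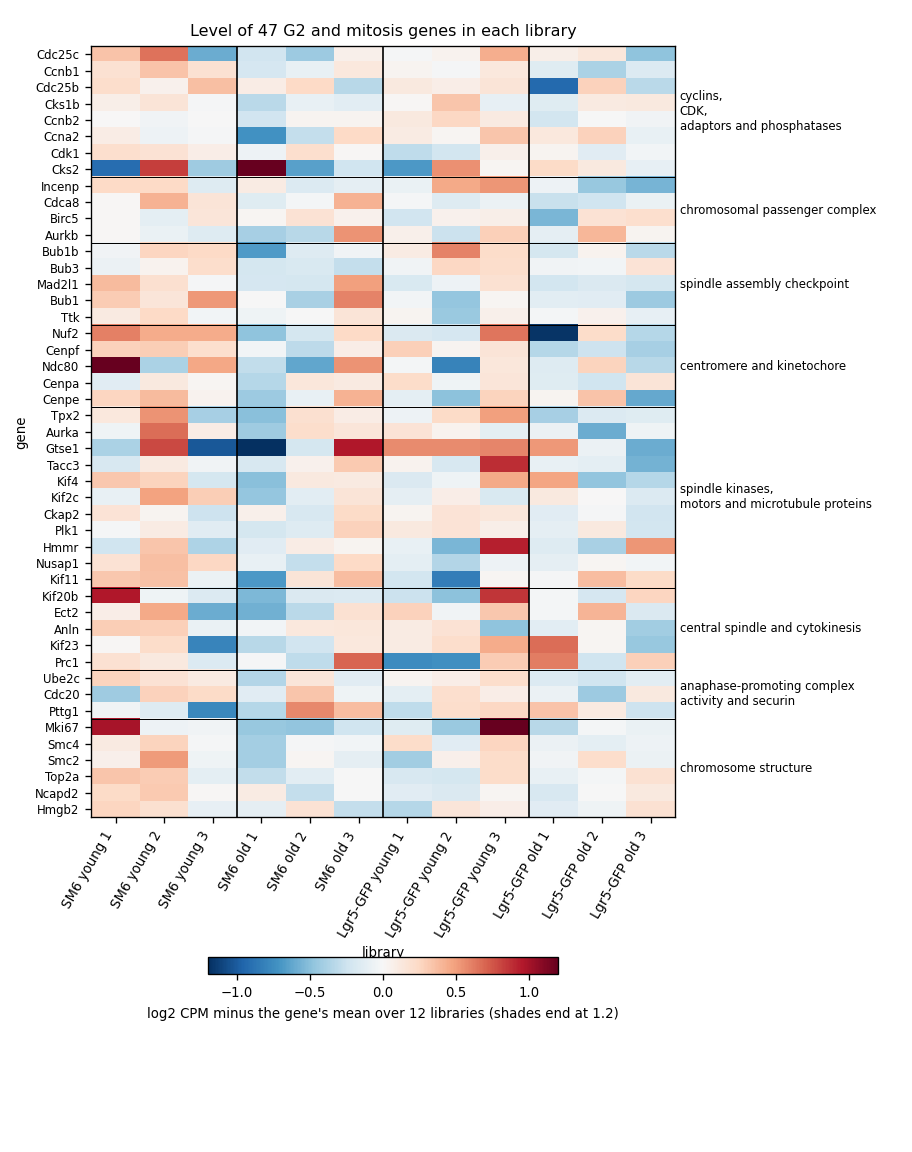
Level of the 47 tested genes (rows, grouped by role) in each of the 12 libraries (columns), as log2 CPM minus the mean of that gene over the libraries, red for higher and blue for lower. SM6 old replicate 1 is lower than the average library for most genes (median difference of -0.23), whereas SM6 old replicate 3 is higher (0.11), and Mki67 stands out in SM6 young replicate 1 and Lgr5-GFP young replicate 3.

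The average of both age effects, which weights the isolations equally and uses all libraries, was below 0 for 40 of 47 members (53.2% of all genes), with a median of -0.14 against -0.03. Without single libraries this median ran from -0.20 to -0.083, the latter without SM6 young replicate 2, where 36 of 47 were lower, and it was -0.088 without SM6 old replicate 1. A single member was called, Cenpf, where 2.66% of all genes were called and 2.06% were called lower. At an unadjusted p under 0.05, 8 members passed (12.8% of all genes), all of them lower (8.02% of all genes): Cenpf, Mki67, Incenp, Bub1b, Ube2c, Ccnb1, Nuf2 and Tpx2. This number was 5 with library totals alone (11.1% of all genes), 4 when SM6 old replicate 1 was left out (11.4%) and 11 when SM6 young replicate 3 was (12.2%). The age effects of the isolations rest on separate libraries. Estimates were below 0 in both isolations for 26 members (55.3%) and 28.8% of all genes, above 0 in both for 5 members, and opposite for 16. No member was called for a difference of the age effects between isolations, where 0.658% of all genes were called, and none had an unadjusted p under 0.05 there (9.43% of all genes). The latter number depended on the setting: it was 6 with library totals alone (14.4% of all genes), 4 with voom (10.7%), 3 with the Paneth cell covariate (7.25%), 5 when Lgr5-GFP young replicate 3 was left out (9.29%) and 3 when SM6 old replicate 3 was (10.4%). The lowest adjusted p of a member in that edgeR test was 0.535, and estimates of the difference ran from -0.68 to 0.69.

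These estimates were precise enough to set limits. The 95% interval of the log2 fold change stayed within a 2-fold change in either direction for 39 of 47 members in SM6 (44.3% of all genes) and for 41 in Lgr5-GFP (47.5% of all genes), and for 45 on average (62.0% of all genes). The median distance from estimate to interval bound was 0.47 in each isolation and 0.33 for the average. Most members therefore did not differ by 2-fold or more with age, but smaller differences were not resolved gene by gene.

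**Figure D2:**
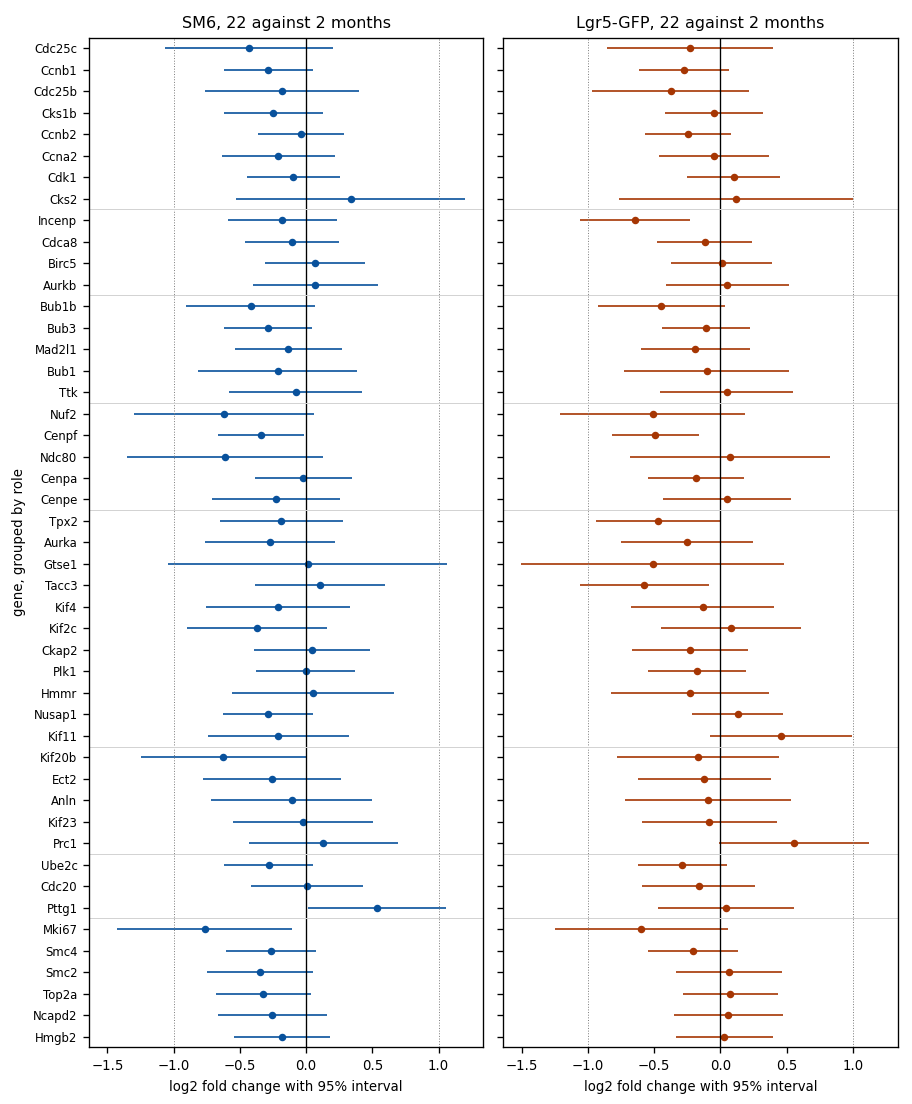
Log2 fold change of old against young (points) with its 95% interval (lines) for each tested gene, in SM6 (left) and Lgr5-GFP (right), with dotted lines at a 2-fold change. In SM6, 37 of the 47 points lie left of 0 and in Lgr5-GFP 31, and most intervals cross 0.

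The size of the SM6 difference rested in part on single libraries. SM6 old replicate 1 was the lowest of its group for 32 of 47 members, and without it 29 members were lower and the median was -0.08. Without SM6 young replicate 2, 31 were lower and the median was -0.14. In Lgr5-GFP, 25 of 47 members were lower without Lgr5-GFP young replicate 3, with a median of -0.056. With the log2 share of Paneth cell and defensin counts in each library as a covariate, 40 members were lower in SM6 (median -0.28) and 25 in Lgr5-GFP, where the median of -0.043 lay beside -0.034 over all genes. Without SM6 old replicate 3 and Lgr5-GFP young replicate 1, the libraries rich in Paneth cell transcripts, 42 members were lower in SM6 (median -0.28) and 35 in Lgr5-GFP (median -0.16). With unscaled library totals, the median over all genes moved to -0.16 in SM6 and 0.16 in Lgr5-GFP. The median of the members then lay at -0.37 and 0.07, so its direction in Lgr5-GFP turned, but its difference from the median of all genes was -0.21 and -0.09, close to the values with scaling.

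Markers of other cell types moved along with age in SM6. Summed over 7 goblet cell markers, the level was 5705 to 9116 CPM in the SM6 young libraries and 17307 to 18224 in the SM6 old ones, and 5 of the 7 genes were called higher. In Lgr5-GFP the same sum was 5298 to 13740 CPM in young and 3153 to 5495 in old, with 6 of 7 estimates below 0 and 0 genes called. The 11 Paneth cell markers summed to 12891 to 88289 CPM in SM6 young and 54068 to 330820 in SM6 old, with 1 gene called higher, and to 57276 to 320270 in Lgr5-GFP young and 22832 to 38945 in Lgr5-GFP old, with 3 called lower. The 8 enterocyte markers reached 1336 to 1528 CPM in SM6 young and 2074 to 8588 in SM6 old, with 4 called higher, and 1191 to 2458 in Lgr5-GFP young and 1514 to 11332 in Lgr5-GFP old, with 3 called lower. In Lgr5-GFP 6 of the 8 estimates were below 0. The sum of 11332 CPM came from Lgr5-GFP old replicate 2, where replicates 1 and 3 had 2226 and 1514. The 7 enteroendocrine markers all had estimates above 0 in SM6, with 1 called higher, and summed to 420 to 480 CPM in young and 363 to 874 in old. In Lgr5-GFP 6 of the 7 were below 0 and 0 were called, with sums of 129 to 253 CPM in young and 64.6 to 152 in old. Of the 11 ISC markers, Olfm4, Sox9, Cdk6 and Msi1 fell in SM6, and the list summed to 13796 to 17100 CPM in SM6 young and 8400 to 9841 in SM6 old. In Lgr5-GFP 0 of the 11 were called, with sums of 13343 to 15039 CPM in young and 11215 to 12649 in old. The part of these cells in the members' differences was not tested.

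Summed over all 48 genes, reads of G2 and mitosis genes made up 0.555%, 0.583% and 0.519% of the total in SM6 young replicates 1 to 3, and 0.415%, 0.461% and 0.407% in SM6 old. All SM6 old libraries lay below all SM6 young ones on this scale (0.553% ± 0.0324 against 0.428% ± 0.0293, SD, n = 3). In Lgr5-GFP young the shares were 0.385%, 0.448% and 0.615%, and in Lgr5-GFP old 0.492%, 0.504% and 0.503%. The old libraries were nearly equal and lay within the wide range of the young. The Wilson 95% interval of the shallowest library, Lgr5-GFP old replicate 3, was 0.489% to 0.518%, and such intervals cover counting error only. Over TMM-scaled totals the SM6 groups overlapped, at 0.477% to 0.564% in young and 0.410% to 0.508% in old, and the means in Lgr5-GFP were 0.505% ± 0.0708 in young and 0.462% ± 0.0111 in old. Over totals without the Paneth cell and defensin genes, the SM6 means were 0.581% and 0.496% and those of Lgr5-GFP 0.567% and 0.516%, and both pairs of groups overlapped. The separation of the SM6 groups thus held only on unscaled totals among these 3 denominators, and SM6 old replicate 3 moved most between them, from 0.407% to 0.558%.

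**Figure D3:**
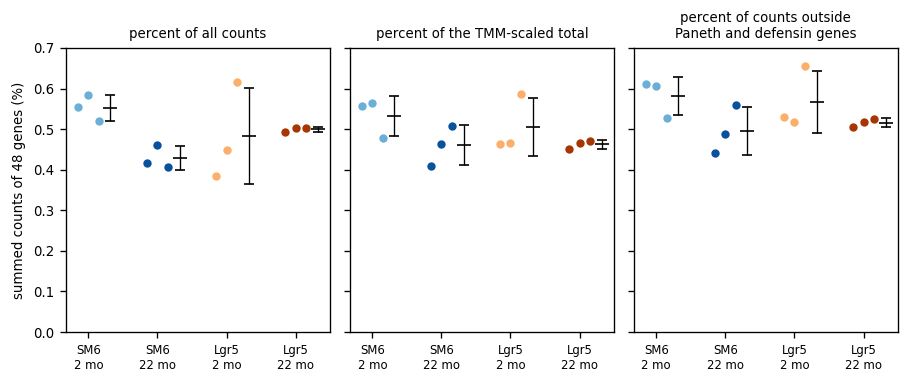
Summed reads of the 48 genes in each library (points) as a percentage of all reads, of the TMM-scaled total and of reads outside Paneth cell and defensin genes, with the mean and SD of each group of 3. The SM6 groups separate in the left panel only, and Lgr5-GFP young replicate 3 is the highest library in each panel.

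Among the regulators of mitotic entry, 7 of 8 had estimates below 0 in SM6 and 6 of 8 in Lgr5-GFP, with 0 called. Ccnb1, which encodes cyclin B1, stood at 119, 132 and 119 CPM in SM6 young replicates 1 to 3, 91.2, 98.4 and 114 in SM6 old, 107, 104 and 114 in Lgr5-GFP young and 94.6, 80.5 and 93.5 in Lgr5-GFP old. Its young and old libraries did not overlap in either isolation. The log2 fold change was -0.29 (95% interval -0.62 to 0.05) in SM6 and -0.28 (-0.62 to 0.07) in Lgr5-GFP, and the average was -0.28 (edgeR, adjusted p = 0.278). Reads of Ccnb1 could be shared with processed pseudogenes of near-identical sequence. Ccnb1-ps had 6 reads in all libraries and Gm12856 had 2, against 2067 for Ccnb1. How reads matching several genes were counted is not stated, so these numbers cannot show if Ccnb1 lost reads.

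Cdk1, the kinase bound by cyclin B, reached 100.1, 98.1 and 91.8 CPM in SM6 young, 83.4, 99.8 and 87.9 in SM6 old, 70.3, 74.7 and 90.7 in Lgr5-GFP young and 88.6, 78.9 and 84.9 in Lgr5-GFP old. The groups overlapped, and the average log2 fold change was 0.00 (95% interval -0.25 to 0.25). Estimates for cyclin A2 (Ccna2) were -0.21 in SM6 and -0.05 in Lgr5-GFP, and for cyclin B2 (Ccnb2) -0.04 and -0.24. Those of the phosphatase genes Cdc25b and Cdc25c, whose products activate the kinase, were -0.18 and -0.43 in SM6 and -0.38 and -0.23 in Lgr5-GFP. The small kinase subunits differed, with Cks1b at -0.25 and -0.05 and Cks2 at 0.34 and 0.12. Cks2 varied widely within groups, from 17.6 to 58.8 CPM in SM6 young and from 21.0 to 81.1 in SM6 old.

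In the chromosomal passenger complex, which corrects faulty attachments, the members differed among themselves. Incenp, the scaffold of the complex, had 103, 103 and 78.0 CPM in SM6 young, 92.7, 77.4 and 80.7 in SM6 old, 81.9, 119 and 125 in Lgr5-GFP young and 83.3, 63.4 and 58.8 in Lgr5-GFP old. The groups overlapped in both isolations, with Lgr5-GFP young replicate 1 at the level of the old. The log2 difference was -0.18 in SM6 and -0.65 (95% interval -1.06 to -0.23) in Lgr5-GFP, the lowest adjusted p of a member there (edgeR, 0.207). The kinase gene Aurkb, Birc5 (survivin) and Cdca8 (borealin) lay between -0.12 and 0.07 in both isolations.

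All 5 genes of the spindle checkpoint had estimates below 0 in SM6, with a median of -0.22, and 4 of 5 did in Lgr5-GFP, with a median of -0.11. Bub1b, whose promoter is shown above, had 35.2, 43.2 and 42.6 CPM in SM6 young, 22.6, 32.6 and 35.1 in SM6 old, 38.7, 54.8 and 42.2 in Lgr5-GFP young and 31.3, 37.4 and 28.9 in Lgr5-GFP old. All old libraries lay below all young ones in each isolation. This corresponds to a log2 fold change of -0.42 (95% interval -0.91 to 0.07) in SM6 and -0.45 (-0.93 to 0.03) in Lgr5-GFP, with an average of -0.43 (edgeR, adjusted p = 0.228). Without single libraries the value of Bub1b ran from -0.53 to -0.24 in SM6 and from -0.55 to -0.31 in Lgr5-GFP. Bub3, which recruits checkpoint proteins to the kinetochore, reached 134, 145 and 163 CPM in SM6 young, 122, 124 and 116 in SM6 old, 137, 167 and 164 in Lgr5-GFP young and 137, 137 and 158 in Lgr5-GFP old. Its groups did not overlap in SM6 but did in Lgr5-GFP, with log2 fold changes of -0.29 and -0.11. Bub1, Ttk and Mad2l1, which encode kinases and the effector of the checkpoint, lay between -0.22 and 0.05.

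The centromere and kinetochore genes held the called member. Cenpf had 232, 236 and 219.7 CPM in SM6 young replicates 1 to 3, 187, 154 and 203 in SM6 old, 234, 196 and 214 in Lgr5-GFP young and 151, 161 and 146 in Lgr5-GFP old. All young libraries lay above all old ones of the same isolation, with a mean of 229 ± 8.40 against 181 ± 24.9 CPM in SM6 and 214 ± 19.2 against 153 ± 7.78 in Lgr5-GFP (SD, n = 3). The log2 fold change was -0.34 (95% interval -0.67 to -0.01) in SM6 and -0.49 (-0.82 to -0.17) in Lgr5-GFP. On average Cenpf fell by 0.42 on the log2 scale (95% interval -0.65 to -0.19, edgeR, adjusted p = 0.044). The size of the difference moved little under other settings, but the call did not hold in many of them: the adjusted p was 0.058 with DESeq2 size factors and 0.058 without the 2 libraries rich in Paneth cell transcripts, and between 0.050 and 0.135 when any single library other than SM6 old replicate 3 and Lgr5-GFP young replicate 2 was left out. The call was also lost with library totals alone, with the Paneth cell covariate and with the replicate number as a block.

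Nuf2, part of the complex that holds microtubules at the kinetochore, had 29.7, 26.6 and 26.7 CPM in SM6 young, 14.0, 17.0 and 23.2 in SM6 old, 17.3, 17.0 and 30.6 in Lgr5-GFP young and 8.66, 22.8 and 15.4 in Lgr5-GFP old. The groups separated in SM6 only, and the average log2 fold change was -0.57 (95% interval -1.05 to -0.08, edgeR, adjusted p = 0.282). Its partner Ndc80 had estimates of -0.61 in SM6 and 0.07 in Lgr5-GFP, the motor gene Cenpe -0.23 and 0.05, and Cenpa, the histone of centromeres, -0.02 and -0.19.

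**Figure D4:**
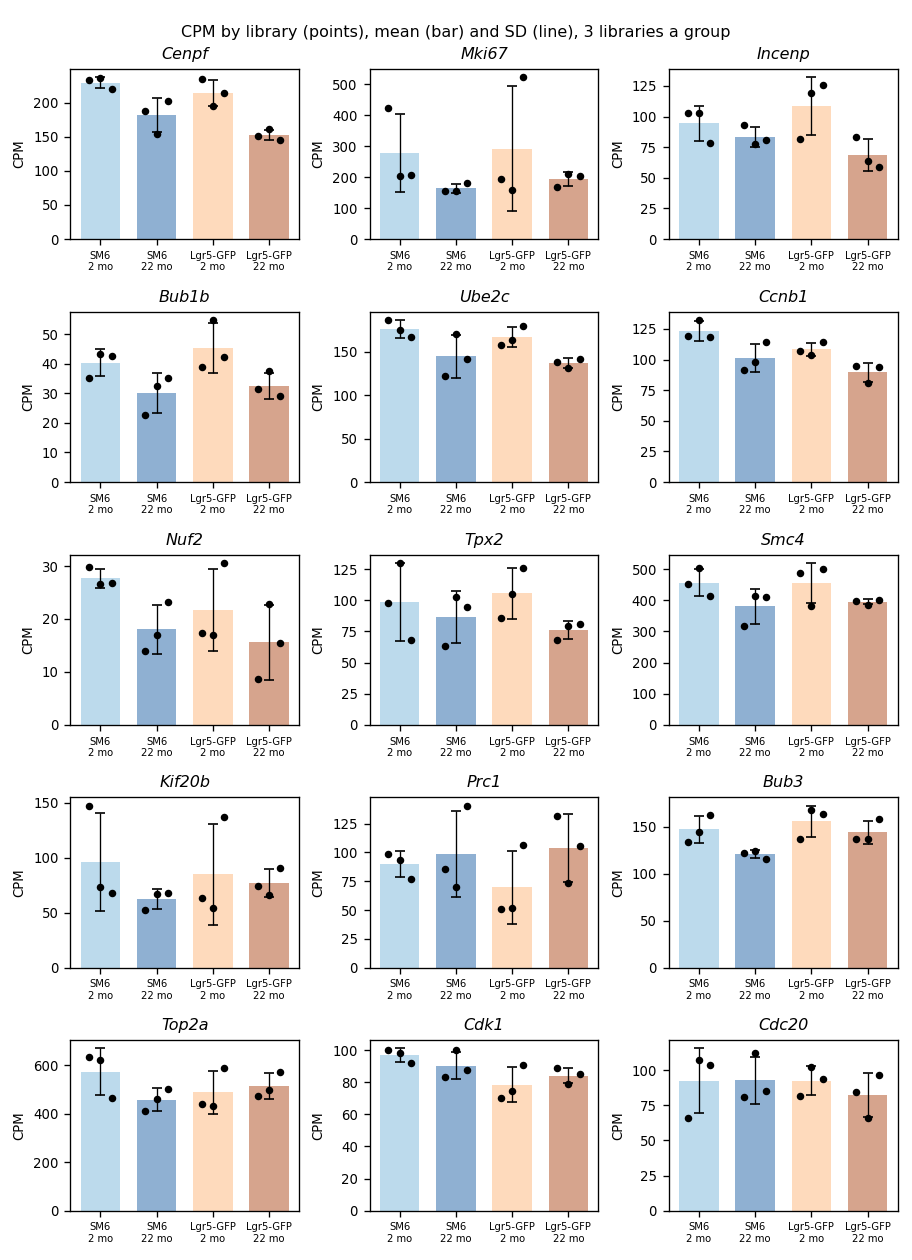
CPM of 15 genes in each library (points), with the mean (bar, from 0) and SD (line) of each group of 3. Cenpf, Ccnb1 and Bub1b show young and old libraries apart in both isolations, and in Mki67 and Kif20b 1 young library of each isolation stands far above the others.

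Of the 11 spindle genes, 7 were below 0 in SM6 and 8 in Lgr5-GFP, and 10 on average. Tpx2, which activates the spindle kinase Aurora A, reached 97.7, 130.3 and 67.9 CPM in SM6 young, 63.1, 102 and 95.1 in SM6 old, 85.7, 105 and 126 in Lgr5-GFP young and 68.0, 79.7 and 81.0 in Lgr5-GFP old. Its groups overlapped in SM6 and not in Lgr5-GFP, with log2 fold changes of -0.19 and -0.47 (95% interval -0.94 to -0.01). The gene of Aurora A itself, Aurka, had estimates of -0.27 and -0.25. Plk1, the kinase that acts from mitotic entry to cytokinesis, lay at 0.00 in SM6 and -0.18 in Lgr5-GFP. The motor gene Kif11 was on opposite sides, at -0.21 in SM6 and 0.46 in Lgr5-GFP (95% interval -0.08 to 0.99). Tacc3, a microtubule protein, was at 0.10 and -0.57, with Lgr5-GFP young replicate 3 at 132 CPM against 73.4 and 62.4 in the other libraries of its group. The remaining spindle genes Kif2c, Kif4, Nusap1, Hmmr, Ckap2 and Gtse1 lay between -0.37 and 0.05 in SM6 and between -0.51 and 0.13 in Lgr5-GFP.

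Genes of the central spindle and of cytokinesis had 4 of 5 tested estimates below 0 in each isolation. Kif20b, a kinesin needed to finish cytokinesis, had 147, 73.2 and 67.9 CPM in SM6 young, 52.2, 67.2 and 67.9 in SM6 old, 63.3, 53.9 and 137 in Lgr5-GFP young and 74.6, 65.9 and 90.7 in Lgr5-GFP old. A single young library stood high in each isolation, SM6 young replicate 1 and Lgr5-GFP young replicate 3. Kif20b had a log2 fold change of -0.62 in SM6 and -0.17 in Lgr5-GFP, and without those libraries in turn it was -0.18 in SM6 and 0.37 in Lgr5-GFP. Prc1, which bundles microtubules of the central spindle, was the member with the highest average estimate. It had 98.3, 93.7 and 77.3 CPM in SM6 young, 85.7, 69.9 and 141 in SM6 old, 51.4, 52.0 and 106 in Lgr5-GFP young and 132, 73.2 and 105 in Lgr5-GFP old. The groups overlapped, and the average log2 fold change was 0.34 (95% interval -0.06 to 0.74). That of Prc1 ran from 0.18 without SM6 old replicate 3 to 0.57 without Lgr5-GFP young replicate 3. Kif23, Anln and Ect2 lay between -0.26 and -0.02.

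Ube2c, the ubiquitin-conjugating enzyme that works with the anaphase-promoting complex, had 187, 175 and 167 CPM in SM6 young, 122, 171 and 141 in SM6 old, 158, 164 and 179.6 in Lgr5-GFP young and 138, 131 and 142 in Lgr5-GFP old. The groups were apart in Lgr5-GFP, and in SM6 old replicate 2 reached into the young range. The log2 fold change was -0.28 in SM6 and -0.29 in Lgr5-GFP, and the average was -0.29 (95% interval -0.52 to -0.05, edgeR, adjusted p = 0.255). Cdc20, the activator of the complex, had 66.1, 108 and 104 CPM in SM6 young, 81.1, 112 and 85.5 in SM6 old, 81.9, 102 and 94.0 in Lgr5-GFP young and 84.6, 65.9 and 96.4 in Lgr5-GFP old. Its groups overlapped, at 0.01 in SM6 and -0.16 in Lgr5-GFP. Pttg1, which encodes securin, was the single member with an unadjusted p under 0.05 and a higher level in old ISCs, at 0.53 (95% interval 0.01 to 1.06) in SM6, and lay at 0.04 in Lgr5-GFP.

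The 6 genes of chromosome structure were all below 0 in SM6, with a median of -0.29, and 2 of 6 were in Lgr5-GFP, with a median of 0.04. Differences of the age effects ran from 0.05 to 0.41 for these genes, and the lowest adjusted p among them was 0.651 in the edgeR test. Mki67 had 423, 205 and 207 CPM in SM6 young, 156, 154 and 181 in SM6 old, 193, 157 and 523 in Lgr5-GFP young and 169, 209.8 and 203 in Lgr5-GFP old. In SM6 the young libraries lay above the old, and in Lgr5-GFP the groups overlapped. As with Kif20b, SM6 young replicate 1 and Lgr5-GFP young replicate 3 were at least 2 times the next library of their group. The log2 fold change was -0.77 (95% interval -1.43 to -0.11) in SM6 and -0.60 (-1.25 to 0.05) in Lgr5-GFP, with an average of -0.68 (-1.15 to -0.22, edgeR, adjusted p = 0.129). Without SM6 young replicate 1 the SM6 value was -0.33, and without Lgr5-GFP young replicate 3 the Lgr5-GFP value turned to 0.14. Mki67 was called lower on average when the 2 libraries rich in Paneth cell transcripts were left out (-0.83, edgeR, adjusted p = 0.047), without Lgr5-GFP young replicate 2 (-0.83, adjusted p = 0.034) and with no filter beyond 1 count (-0.70, adjusted p = 1.2e-05). In the fit without the filter, which took in 23621 genes, the p moved far but the estimate stayed near the main one. The SD of Mki67 was 44.9% of the mean in SM6 young and 69.3% in Lgr5-GFP young.

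Top2a, the topoisomerase that untangles sister chromatids, had 633, 622 and 463 CPM in SM6 young, 411, 459 and 502 in SM6 old, 441, 433 and 587 in Lgr5-GFP young and 473, 496 and 572 in Lgr5-GFP old. The groups overlapped, with a log2 fold change of -0.32 (95% interval -0.68 to 0.03) in SM6 and 0.07 (-0.29 to 0.43) in Lgr5-GFP. Smc4, a core subunit of condensin, had 452, 503 and 415 CPM in SM6 young, 316, 414 and 411 in SM6 old, 486, 382 and 500.0 in Lgr5-GFP young and 399, 385 and 402 in Lgr5-GFP old. Its log2 fold change was -0.26 in SM6, where SM6 old replicate 2 came just under the lowest young library, and -0.21 in Lgr5-GFP, where the groups overlapped. Without single libraries the SM6 value of Smc4 ran from -0.33 to -0.13. The study's own whole-transcript libraries of pooled wild-type mice went the other way, with Smc4 listed as higher in old ISCs. Reads of Hmgb2 could be shared with the pseudogene Gm4739, which had 230 reads in all libraries against 5692. The condensin genes Smc2 and Ncapd2 lay at -0.35 and -0.25 in SM6 and at 0.06 in Lgr5-GFP both, and Hmgb2, a chromatin protein, at -0.18 and 0.03.

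Counted over all members, 9 (19.1%) had every SM6 old library below every SM6 young one, where 9.78% of all genes did: Ccnb1, Cks1b, Bub1b, Bub3, Cenpf, Nuf2, Kif20b, Smc4 and Mki67. In Lgr5-GFP these were 8 (17.0%, against 7.95% of all genes): Ccnb1, Ccnb2, Bub1b, Cenpf, Tpx2, Ckap2, Gtse1 and Ube2c. No member had every old library above every young one in either isolation, where 7.74% and 6.61% of all genes did. Ccnb1, Bub1b and Cenpf were on both lists, which is 6.38% of the members, where 1.29% of all genes separated in this direction in both isolations. Within groups, the members' median coefficient of variation was 13.4%, 17.7%, 15.8% and 12.7% in SM6 young, SM6 old, Lgr5-GFP young and Lgr5-GFP old, against 16.3%, 19.5%, 16.7% and 19.1% for the 8327 genes with a mean of at least 10 CPM. It was thus lower for the members in every group, most clearly in Lgr5-GFP old, but the members were not matched to these genes by level. Lgr5-GFP young replicate 3 was the highest of its group for 32 of the 47 members.

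The isolations were also compared at each age. Young SM6 libraries serve in the SM6 age comparison too, so values are given side by side only. At 2 months, 0 members were called (0.0898% of all genes), 1 had an unadjusted p under 0.05 (7.47% of all genes) and the median log2 difference, Lgr5-GFP minus SM6, was -0.07. Without single libraries this median ran from -0.14, without Lgr5-GFP young replicate 3, where 8 members had an unadjusted p under 0.05 (7.42% of all genes), to 0.038 without Lgr5-GFP young replicate 1. The member with an unadjusted p under 0.05 in all libraries was Nusap1, a spindle microtubule protein, with a difference of -0.43 (95% interval -0.77 to -0.09). The Lgr5-GFP libraries lay below all SM6 ones for 5 members (7.35% of all genes) and above them for 1 (6.38% of all genes). At 22 months, 0 members were called (0.718% of all genes), 0 had an unadjusted p under 0.05 (9.4% of all genes), and the median difference was -0.03, with a range of -0.11 (without SM6 old replicate 1) to 0.067 (without SM6 old replicate 3). A single member, Bub3, had all Lgr5-GFP old libraries above all SM6 old ones (6.13% of all genes), and 0 had them below (7.41% of all genes). DESeq2 and limma voom called 0 members at either age. At 22 months the 95% interval lay within 2-fold for 45 of 47 members (45.9% of all genes).

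Other genes of the same pathway were counted too. Of 71 tested further genes of G2 and mitosis, 41 (57.7%, against 50.7% of all genes) were below 0 in SM6 and 38 (53.5%, against 53.6%) in Lgr5-GFP, with medians of -0.03 and -0.04, and 43 (60.6%, against 53.2%) on average with a median of -0.08. Without single libraries these medians ran from -0.088 to -0.0014 in SM6, from -0.11 to 0.14 in Lgr5-GFP and from -0.12 to -0.018 on average. In SM6 and on average 1 of the 71 was called, where 2.42% and 2.66% of all genes were. Every old library lay below every young one for 8 of the 71 (11.3%, against 9.78% of all genes) in SM6 and 2 (2.82%, against 7.95%) in Lgr5-GFP. Every old library lay above every young one for 3 (4.23%, against 7.74% of all genes) in SM6 and 9 (12.7%, against 6.61%) in Lgr5-GFP. At an unadjusted p under 0.05, 3 passed in SM6 (4.23%, against 13.1% of all genes), all lower (7.68% of all genes). In Lgr5-GFP 11 passed (15.5%, against 9.79% of all genes), of which 5 were lower (5.84% of all genes). The called gene was Cit, a kinase of the cleavage furrow, with 212, 289 and 223 CPM in SM6 young, 121, 128 and 157 in SM6 old, 201, 124 and 195 in Lgr5-GFP young and 130.0, 187 and 89.7 in Lgr5-GFP old. The SM6 groups did not overlap and the Lgr5-GFP groups did. Cit fell by 0.84 on the log2 scale in SM6 (edgeR, adjusted p = 0.045) and by 0.60 on average (adjusted p = 0.039), was not called in Lgr5-GFP (-0.36), and lost the SM6 call with DESeq2 size factors (adjusted p = 0.051) and without any of 6 single libraries, most clearly SM6 young replicate 2 (-0.69, adjusted p = 0.251). The SM6 call of Cit was also lost with the replicate number as a block (-0.83, edgeR adjusted p = 0.057) and with the Paneth cell covariate (-0.87, adjusted p = 0.074). Its average call was lost with library totals alone (-0.58, edgeR adjusted p = 0.064), without the 2 libraries rich in Paneth cell transcripts (-0.59, adjusted p = 0.058) and without any of 8 single libraries, most clearly SM6 young replicate 2 (-0.52, adjusted p = 0.139). Foxm1, which encodes the factor that activates many of the members, had estimates of -0.01 in SM6 and 0.25 in Lgr5-GFP. Lin54, whose product binds the cell cycle homology region, had 0.58 and 0.63, and was not called.

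Of 32 genes of S phase and replication, all tested, 22 (68.8%, against 50.7% of all genes) were below 0 in SM6 and 19 (59.4%, against 53.6%) in Lgr5-GFP. Their medians were -0.11 in SM6 and -0.08 in Lgr5-GFP. Without single libraries these medians ran from -0.15 to 0.040 in SM6 and from -0.17 to 0.0096 in Lgr5-GFP, so both could turn. Rrm2, a subunit of ribonucleotide reductase, had 135, 155 and 136 CPM in SM6 young, 75.6, 75.3 and 121 in SM6 old, 106, 105 and 153 in Lgr5-GFP young and 91.3, 107 and 68.5 in Lgr5-GFP old. Its SM6 groups did not overlap. Rrm2 fell by 0.55 on the log2 scale on average (edgeR, adjusted p = 0.047), and was not called in SM6 (-0.65) or Lgr5-GFP (-0.45) alone. In SM6 it was called with voom (-0.78, adjusted p = 0.022), and with edgeR on library totals alone (-0.83, adjusted p = 0.041), with no filter beyond 1 count (-0.65, adjusted p = 0.038), without SM6 old replicate 3 (-0.90, adjusted p = 0.020) and without the 2 libraries rich in Paneth cell transcripts (-0.90, adjusted p = 0.017). The average call was lost with DESeq2 size factors (edgeR, adjusted p = 0.060), library totals alone (adjusted p = 0.077) and without any of 8 single libraries, most clearly Lgr5-GFP young replicate 3 (-0.45, adjusted p = 0.170). The study's own whole-transcript libraries of pooled wild-type mice went the other way, with Rrm2 listed as higher in old ISCs.

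Of 9 tested inhibitors of cyclin-dependent kinases and pocket proteins, 1 was called in SM6 (2.42% of all genes) and 1 in Lgr5-GFP (0.471%), both lower. At an unadjusted p under 0.05, 4 passed in SM6 (13.1% of all genes), of which only 1 was lower, and estimates there reached 2.08. In Lgr5-GFP 2 passed (9.79% of all genes), both lower. On average 4 of the 9 were below 0 (53.2% of all genes), with a median of 0.07. Cdkn1b, which encodes p27, had 405, 446 and 483 CPM in SM6 young, 76.4, 132 and 154 in SM6 old, 283, 253 and 329.5 in Lgr5-GFP young and 139, 259 and 122 in Lgr5-GFP old. In SM6 the groups lay far apart, and in Lgr5-GFP old replicate 2 reached the young range. Cdkn1b fell by 1.88 on the log2 scale in SM6 (95% interval -2.39 to -1.37, edgeR, adjusted p = 2.0e-04) and by 1.31 on average (adjusted p = 9.5e-05). In Lgr5-GFP the value was -0.74 (adjusted p = 0.237), and -1.15 and called without Lgr5-GFP old replicate 2 (edgeR, adjusted p = 0.017) and -0.76 and called with no filter beyond 1 count (adjusted p = 0.0051). The estimated difference of the age effects of Cdkn1b, Lgr5-GFP minus SM6, was 1.14 (edgeR, adjusted p = 0.186), and it was called with library totals alone (1.51, adjusted p = 0.033) and with no filter (1.12, adjusted p = 0.0029). In the fit without the filter, only the p of Cdkn1b moved far, and its estimates stayed near the main ones. Both directions appeared in Cdkn1a, which encodes p21: it had 46.7, 36.0 and 48.4 CPM in SM6 young, 81.1, 57.0 and 62.3 in SM6 old, 71.8, 41.6 and 47.2 in Lgr5-GFP young and 19.3, 28.5 and 22.2 in Lgr5-GFP old. The old libraries lay above the young in SM6 and below them in Lgr5-GFP. Cdkn1a fell by 1.23 on the log2 scale in Lgr5-GFP (edgeR, adjusted p = 0.027), had an estimate of 0.61 in SM6 (adjusted p = 0.220), and its age effects differed between the isolations by -1.85 (95% interval -2.56 to -1.13, adjusted p = 0.010). Without the 2 libraries rich in Paneth cell transcripts, the Lgr5-GFP value was -0.94 (adjusted p = 0.147). The Lgr5-GFP call was also lost without Lgr5-GFP young replicate 1 (-0.94), old replicate 1 (-1.10) or old replicate 3 (-1.21, edgeR, adjusted p = 0.093), and with library totals alone (-1.01, adjusted p = 0.073). With the Paneth cell and defensin share as a covariate, the Lgr5-GFP value of Cdkn1a was -1.12 (edgeR, adjusted p = 0.221) and the difference between isolations was -1.67 (adjusted p = 0.231).

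**Figure D5:**
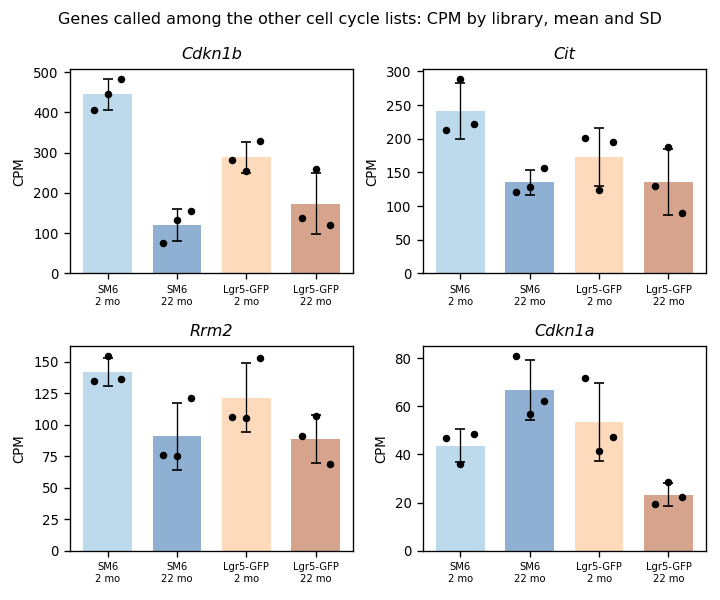
CPM of Cdkn1b, Cit, Rrm2 and Cdkn1a in each library (points), with the mean (bar, from 0) and SD (line) of each group of 3. Cdkn1b falls from between 405 and 483 CPM to between 76.4 and 154 in SM6, and Cdkn1a lies higher in old SM6 libraries and lower in old Lgr5-GFP libraries.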

How the data were processed

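The deposited table holds raw read counts per gene for 12 libraries of sorted ISCs. The authors aligned 3′ reads to GRCm38 with STAR 2.4.2a and counted exonic reads with featureCounts. The sources do not state if reads sharing a molecular identifier were merged, so Wilson intervals of shares cover counting error only. Gene names and shared sequence were looked up in GENCODE vM21 (GRCm38), and promoters from RefSeq tables of GRCm38.p6.

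The analysis used edgeR 4.0.16 in R 4.3.3. Genes with more than 5 reads and at least 1 CPM in at least 1 library were kept (13368 genes), and totals were scaled by TMM. Quasi-likelihood fits with a mean for each group and no covariate were made to all 12 libraries (common dispersion 0.0434). Two-sided p-values were adjusted over all 13368 genes by the Benjamini-Hochberg method, and genes were called at an adjusted p under 0.05. On simulated data for this table, 68% of 2-fold and 92% of 4-fold changes were recovered for old against young in SM6, 47% and 99% in Lgr5-GFP and 88% and 100% on average. The members and all gene lists were chosen with earlier results of these data known, so lists are given as counts and medians with no test. Singly described genes were those with the 12 smallest p for the average age effect, with Mki67, Top2a, Ccnb1, Cdk1, Cdc20 and Bub3, and, in the other lists, those called in an age comparison. Foxm1 and Lin54, and other genes given by their estimates, were chosen after their values were seen. DESeq2 1.42.0, limma 3.58.1 (voom), other scalings, filters, a replicate block, a Paneth cell covariate and leaving out libraries were tried as alternatives. Leaving out both libraries rich in Paneth cell transcripts was added after the data were seen. Figures were drawn with matplotlib 3.10.9.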

Additional observations from a re-analysis of the deposited data

Results flagged for a closer look

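The age effect on Cdkn1a, which encodes the kinase inhibitor p21, differed between the isolations by the test of the difference itself: the log2 age effect in Lgr5-GFP minus that in SM6 was -1.85 (edgeR, adjusted p = 0.010). The old libraries lay above the young in all 3 replicates of SM6 and below them in all 3 of Lgr5-GFP. With the share of Paneth cell and defensin reads as a covariate the value was -1.67 (edgeR, adjusted p = 0.231).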

How the results depend on the processing

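The number of members called was 0 in Lgr5-GFP, for the difference of the age effects and between the isolations under every alternative run. In SM6 it was 1 (Mki67) with no filter beyond 1 count and 0 otherwise. On average over both isolations, where Cenpf was called, the number was 0 with DESeq2 size factors, library totals alone and the Paneth cell covariate, 2 with no filter, and 0 to 2 when single libraries were left out. With the replicate number as a block, 0 members were called on average. The numbers do not pair the libraries, since deviations of libraries with the same number correlated between -0.074 and 0.048. The members' median log2 fold change in SM6 was -0.37 with library totals alone and -0.29 to -0.083 when single libraries were left out, the latter without SM6 old replicate 1. In Lgr5-GFP it was 0.071 with library totals alone. The median difference of the age effects was 0.39 with library totals alone, where that of all genes was 0.35, 0.19 with the covariate and -0.076 to 0.16 without single libraries. Between the isolations the median was 0.057 at 2 months without the 2 libraries rich in Paneth cell transcripts, and 0.21 at 22 months with library totals alone, where that of all genes was also 0.21. The summed share was 0.460% (TMM) and 0.496% (without Paneth cell and defensin genes) in SM6 old, and 0.462% and 0.516% in Lgr5-GFP old. Single estimates near 0 changed sign. With library totals alone, these were Prc1 in SM6 (-0.054), Bub3 in Lgr5-GFP (0.071) and Cdc20 in SM6 (-0.15) and Lgr5-GFP (0.020). With voom they were Kif20b in Lgr5-GFP (0.020) and Prc1 in SM6 (-0.048). The average for Cdk1 was -0.015 with no filter, -0.013 with the covariate and -0.023 without the 2 libraries, where Prc1 in SM6 was -0.20. Without single libraries, Mki67 (-0.89 to 0.14), Kif20b (-0.38 to 0.37) and Top2a (-0.0099 to 0.23) spanned 0 in Lgr5-GFP, Tpx2 (-0.39 to 0.067), Prc1 (-0.20 to 0.33) and Cdc20 (-0.19 to 0.13) in SM6, and Cdk1 on average (-0.0404 to 0.063). Apart from the library named, the cause of these shifts was not tested. With 3 mice a group, differences under 2-fold in a single gene were often below what the test resolved.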
